A study of Homo sapiens with 6 samples.

Results

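The 10 genes described here encode the protein-folding and protein-degrading machinery of the mitochondrial matrix and intermembrane space, and were chosen by name from the 60651 genes counted in each library. They are the chaperones *HSPD1*, *HSPE1*, *HSPA9*, *TRAP1* and *DNAJA3* and the protease genes *LONP1*, *CLPP*, *CLPX*, *YME1L1* and *HTRA2*. Each symbol matched 1 gene identifier, and all 10 passed the filter on low counts. Their values come from total RNA sequencing of a neuroblastoma cell line, a cultured line grown from a childhood tumour of the sympathetic nervous system, in 3 libraries with titles naming EtOH and 3 with titles naming Tet. The protocol text describes tetracycline in the medium for 5 days to switch on a *MYCN* construct, in SK-N-SH cells that also carry a tetracycline repressor and were kept as single clones under G418 and Blasticidin. The titles name IMR575 instead, and one tag reads knockdown, with the values Control for EtOH and Induction for Tet, and the column headers of the tables name IMR575 with plusTet for Tet and -Tet for EtOH. The study's methods describe an inducible shRNA against *MYCN* in IMR-5/75, a line whose name is close to that in the titles and headers, but the protocol text differs, so the direction of the *MYCN* change is not settled by the labels. How many clones stand behind the libraries is not given. The labels do not say whether libraries of a group came from separate cultures. The study's methods give 3 independent biological replicates for in vitro work unless stated otherwise, without naming these libraries. The p-values therefore measure only the spread between these libraries. For the IMR-5/75 shRNA model, the methods state that the knockdown was checked by western blot for MYCN.

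Most mitochondrial proteins are made in the cytosol and enter the organelle unfolded. *HSPA9* encodes mortalin, the mitochondrial Hsp70, which pulls them through the inner membrane and folds them with the J-domain partner encoded by *DNAJA3*, while the *HSPD1* and *HSPE1* products, Hsp60 and Hsp10, close over the client as a chamber and its lid. Proteins that fail to fold are removed by ATP-dependent proteases, and when unfolded protein builds up, the nucleus raises these genes in the mitochondrial unfolded protein response, in which ATF5, ATF4 and HSF1 have been implicated. MYC family factors bind the E-box sequence CACGTG and are known to raise many genes of mitochondrial biogenesis.

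The 6 libraries held 27933378 to 40498065 estimated counts, and 3 counts correspond to 0.0741 to 0.107 CPM of these unadjusted totals. CPM is the usual depth-scaled read count, and the levels in CPM below are relative to the library size after TMM scaling. The share of counts from the mitochondrial genome was lowest in EtOH replicate 2, at 4.12%, and ranged from 5.86% to 10.01% in the other libraries. *MYCN* itself was measured at 158, 256 and 156 CPM in EtOH replicates 1 to 3 and at 197, 200.1 and 145 CPM in Tet replicates 1 to 3. The groups overlapped, and its log2 fold change, Tet minus EtOH, was -0.07 with a standard error (SE) of 0.23 and an adjusted p of 0.956 by edgeR, a sign that turned without EtOH replicate 2 (0.21) or without Tet replicate 3 (0.07). The comparisons that follow are therefore between labels, not between measured *MYCN* levels. Of 8 neuroblastoma markers, 6 had a mean of at least 1 CPM, with a summed level of 556 to 656 CPM in EtOH and 656 to 779 CPM in Tet libraries, whereas *TH* did not exceed 0.0252 CPM and *DBH* did not exceed 0.453 CPM. Of 8 mesenchymal, endothelial, blood and epithelial markers, 3 reached that mean and *COL1A2* was at 0 in all libraries. Their sum, mostly the mesenchymal marker *PRRX1*, was 65.3 to 142 CPM in EtOH and 37.7 to 60.3 CPM in Tet libraries. The part of these marker levels in the results below was not tested. In bulk RNA, fewer cells of a type and less RNA per cell cannot be told apart.

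None of the 10 genes changed between Tet and EtOH at an edgeR adjusted p under 0.05, a threshold that 0.236% of the 22443 genes tested passed. None had an unadjusted p under 0.05 either, which 10.8% of tested genes had, and DESeq2 and limma-voom called none. The log2 fold change was below 0 for 7 of the 10 genes, with a median of -0.21 beside -0.0061 over all genes tested. Of the 22443 genes tested, 11374 were below 0. The 3 libraries of each group did not overlap for 1 of the 10 genes, *HSPD1*, which was lower in Tet, against a background of 17.5% of tested genes in either direction and 8.28% with Tet lower. A share of 1 in 10 lies near that background. What separated the 10 genes was their level, which divided them in every library into 5 abundant and 5 scarce transcripts.

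**Figure D1:**
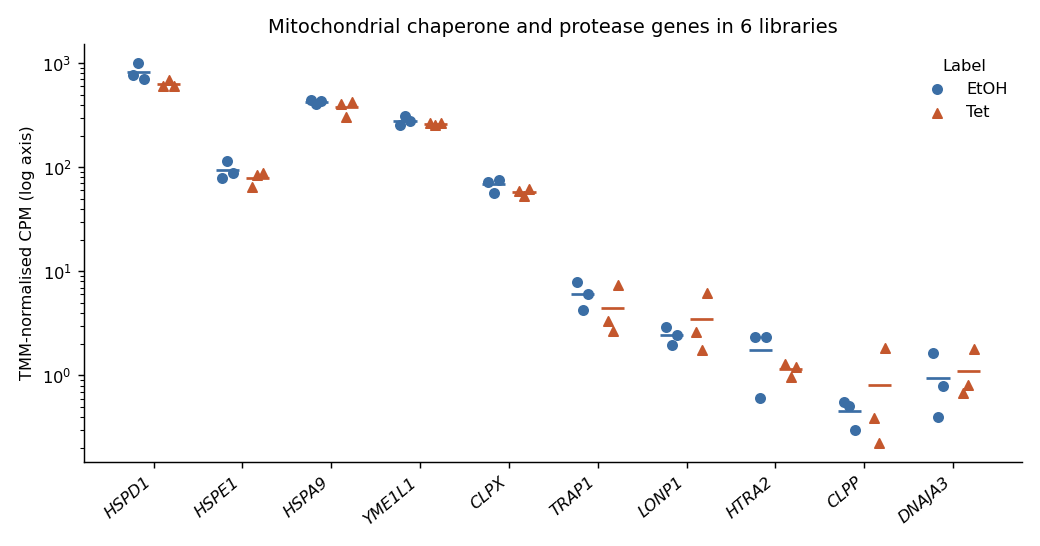
Normalised level of each of the 10 genes in every library, in CPM on a log axis, with EtOH and Tet replicates 1 to 3 as points and the group mean as a bar. *HSPD1* is the only gene whose groups do not overlap, and the 5 scarce genes lie below 8 CPM in all 6 libraries.

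Levels per exon length, as TPM, which are scaled to a common sum in each library, allow the genes to be ranked against each other. The length is that of all annotated exons of a gene, not of 1 transcript. It is 7629 bases for *HSPD1* and 1823 for *HSPE1*, whose canonical coding sequences have 1719 and 306 bases. Ranks and ratios between genes therefore depend on the annotation. *HSPD1* stood first at 263 ± 68.1 TPM (SD, n = 6 libraries), above *HSPE1* in 6 of 6 libraries. *HSPE1* (129 ± 29.8 TPM), *HSPA9* (112 ± 14.9 TPM) and the inner-membrane protease *YME1L1* (101 ± 12.7 TPM) followed. These 3 neighbours overlapped in their ranges, each exceeding the next in 4 of 6 libraries, so their order was not resolved. *CLPX*, the unfoldase subunit of the ClpXP protease, was lower at 31.5 ± 4.45 TPM, below *YME1L1* in 6 of 6 libraries. A wide gap followed, since *CLPX* exceeded *TRAP1*, the mitochondrial Hsp90, by 7.87 to 19.0 times within a library. *TRAP1* itself had 2.74 ± 1.03 TPM. The lowest levels were those of *LONP1* (1.57 ± 0.733 TPM), *HTRA2* (1.51 ± 0.740 TPM), *CLPP* (0.472 ± 0.403 TPM) and *DNAJA3* (0.383 ± 0.192 TPM). Among these, *LONP1* and *HTRA2* were each the higher in 3 of 6 libraries, as were *CLPP* and *DNAJA3*, and neither pair was separated beyond its spread.

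This ranking sets partners of one machine far apart in TPM, which was not corrected for the base composition described below. *CLPP* had 8 to 73 counts per library and *DNAJA3* had 11 to 71. *CLPX* and *CLPP* encode the unfoldase ring and the protease chamber of the same complex, yet *CLPX* exceeded *CLPP* by 84.0, 73.3 and 165 times on the TPM scale in EtOH replicates 1 to 3 and by 98.2, 152 and 21.7 times in Tet replicates 1 to 3. *HSPA9* exceeded its partner *DNAJA3* by 196, 737 and 395 times in EtOH and by 432, 268 and 172 times in Tet libraries. *HSPD1* and *HSPE1*, in contrast, kept a TPM ratio of 2.32, 2.10 and 1.91 in EtOH and of 2.25, 1.98 and 1.64 in Tet libraries. No ratio separated the groups. The differences of the mean log2 ratio, Tet minus EtOH, were -0.11 for *HSPD1* to *HSPE1* (exact two-sided permutation test, p = 0.6), -0.51 for *HSPA9* to *DNAJA3* (exact p = 0.5) and -0.55 for *CLPX* to *CLPP* (exact p = 0.8), each with a Benjamini-Hochberg value of 0.8 over the 3 ratios. With 3 libraries against 3, this test cannot give a p under 0.1. Without Tet replicate 3 the difference for *CLPX* to *CLPP* was 0.28 and that for *HSPD1* to *HSPE1* was 0.0061, and the difference for *HSPA9* to *DNAJA3* ran from -0.99 without EtOH replicate 1 to -0.04 without EtOH replicate 2. The summed TPM of the 5 protease genes was 0.260, 0.224 and 0.285 of that of the 5 chaperones in EtOH and 0.311, 0.268 and 0.288 in Tet libraries.

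The split in level ran along base composition. The 5 abundant genes have 40.9% to 47.2% G and C in their exons and had 1588 to 27919 counts per library. The 5 scarce genes have 51.8% to 62.1% and had 8 to 296 counts. Stretches from the middle of the longest coding exon show the contrast between the ClpXP partners and between a GC-poor and a GC-rich ATP-dependent protease, read 5′ to 3′ on the coding strand of GRCh38 with G and C in capitals.
CLPX, exon 11, chr15:65154872-65154991: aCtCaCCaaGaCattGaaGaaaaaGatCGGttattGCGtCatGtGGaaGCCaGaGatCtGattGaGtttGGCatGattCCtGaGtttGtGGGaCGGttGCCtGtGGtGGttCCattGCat
CLPP, exon 1, chr19:6361614-6361733: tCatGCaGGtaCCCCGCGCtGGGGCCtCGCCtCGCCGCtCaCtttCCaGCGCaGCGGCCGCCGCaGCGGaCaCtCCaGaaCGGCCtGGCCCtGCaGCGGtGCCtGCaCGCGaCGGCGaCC
YME1L1, exon 3, chr10:27145449-27145568: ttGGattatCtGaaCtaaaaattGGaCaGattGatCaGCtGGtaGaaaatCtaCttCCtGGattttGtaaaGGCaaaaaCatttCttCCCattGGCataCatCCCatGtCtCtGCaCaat
LONP1, exon 1, chr19:5719858-5719977: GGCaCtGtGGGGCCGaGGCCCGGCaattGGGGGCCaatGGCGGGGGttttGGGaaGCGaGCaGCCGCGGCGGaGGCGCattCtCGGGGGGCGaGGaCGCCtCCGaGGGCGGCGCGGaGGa
Of the 120 bases in each stretch, 55 are G or C in *CLPX*, 89 in *CLPP*, 44 in *YME1L1* and 90 in *LONP1*. Over the whole coding sequence of the canonical transcript, the share is 43.0% for *CLPX* against 64.3% for *CLPP*, and 40.8% for *YME1L1* against 62.8% for *LONP1*.

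The same relation held across the protein-coding genes of these libraries, genes at 0 included. Their median level was 22.6 TPM with an exon GC content under 40%, 10.8 TPM from 40% to 45%, 3.27 TPM from 45% to 50%, 0.944 TPM from 50% to 55%, 0.321 TPM from 55% to 60% and 0.142 TPM over 60%. Genes of 50% GC or more made up 45.9% of the 19946 coding genes and took 3.98% to 5.59% of their counts. Set against all 16822 coding genes with a count, the mean level of *LONP1* lay at the 44.2 percentile, and against genes within 2 percentage points of its GC content at the 88.9 percentile. *TRAP1* moved from the 50.5 to the 80.1 percentile by the same change of reference, *HTRA2* from 43.7 to 68.9 and *CLPP* from 30.5 to 43.8, whereas *CLPX* moved down from 82.7 to 63.9. *HSPD1* (99.3 and 99.0), *HSPE1* (97.3 and 97.7), *HSPA9* (96.5 and 94.6) and *YME1L1* (95.9 and 92.0) ranked high against both references, and *DNAJA3* ranked low against both (28.5 and 26.1). The part of base composition in the levels of the 10 genes was not tested.

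**Figure D2:**
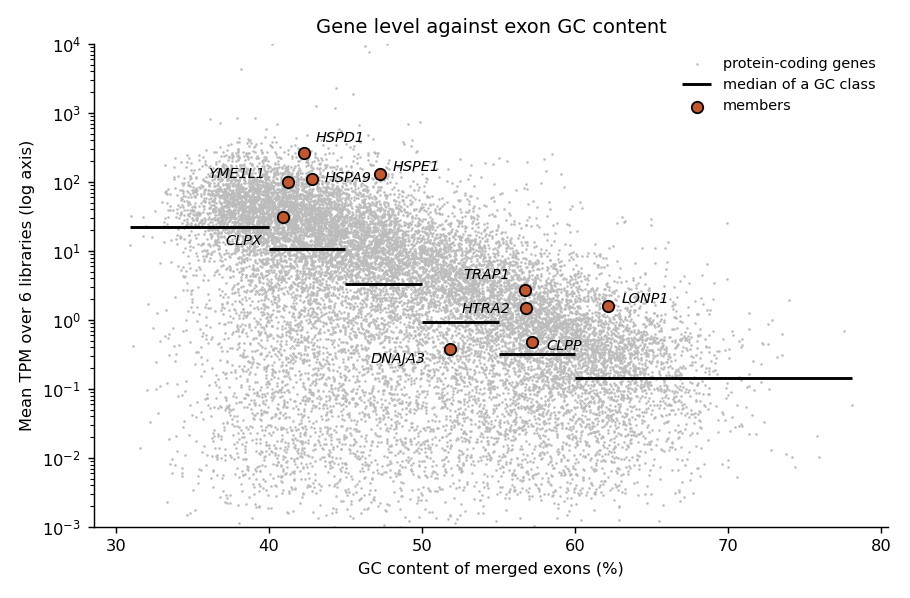
Mean level over the 6 libraries in TPM (log axis) against exon GC content in percent, with coding genes as grey points, the median of each GC class as a black line and the 10 genes named. The class median falls from 22.6 TPM under 40% GC to 0.142 TPM over 60%, and the 5 scarce genes all lie above 50% GC. A few coding genes fall outside the range of the level axis.

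The folding chamber was the most abundant of the 10 genes and the one nearest to a difference. *HSPD1* (GRCh38 chr2:197486584-197516737, minus strand) had 770.3, 1007 and 704 CPM in EtOH replicates 1 to 3 and 606, 691 and 602 CPM in Tet replicates 1 to 3. All 3 Tet libraries lay below the lowest EtOH library, and EtOH replicate 2 was the highest of all. The means were 827 ± 159 CPM in EtOH and 633 ± 50.3 CPM in Tet libraries (SD, n = 3 each), a fold of 0.765 with a 95% interval of 0.580 to 1.01 and an edgeR adjusted p of 0.481. Without EtOH replicate 2, the log2 fold change went from -0.39 to -0.21 (edgeR adjusted p = 0.400), and over all alternatives the adjusted p lay between 0.0646 and 0.798.

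*HSPE1* (chr2:197500140-197503449, plus strand), which encodes the lid, had 79.4, 115 and 88.2 CPM in EtOH and 64.3, 83.5 and 87.4 CPM in Tet libraries. The groups overlapped, with the highest value again in EtOH replicate 2. Its log2 fold change was -0.26 with a 95% interval of -0.70 to 0.18 (edgeR adjusted p = 0.707), and the value was -0.09 without EtOH replicate 2 and -0.15 without Tet replicate 1. Its count is the least certain among the 5 abundant genes. The readthrough gene *HSPE1-MOB4* shares 192 bases of its exons (10.5%) on the same strand, *HSPD1* shares 135 bases (7.41%) on the opposite strand, and the counting did not use the strand. The 26 *HSPE1* pseudogenes together held counts equal to 23.5% of those of *HSPE1*, against 2.30% for the 18 pseudogenes of *HSPD1*. With the pseudogene counts added the log2 fold change was -0.14, and with *HSPE1-MOB4* added it was -0.22.

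*HSPD1* and *HSPE1* lie on opposite strands of chromosome 2, with RefSeq starts in the same stretch. In the annotation used for counting, *HSPE1* lies within the span of *HSPD1*. Their promoters and those of other genes among the 10 were searched for motifs. RefSeq promoter windows (GRCh38.p14, 250 bases before to 50 after a start) were found for 8 of the 10 genes, in 11 windows. *CLPP* and *YME1L1* were not matched. Both strands were searched for the E-box CACGTG, the heat shock elements TTCNNGAA and GAANNTTC, the cAMP response element TGACGTCA, the CCAAT box CCAAT and the C/EBP-ATF element TGATGCAA. The following 30-base stretches hold the E-boxes and heat shock elements found, in capitals.
HSPE1, E-box, chr2:197500345-197500374, plus strand: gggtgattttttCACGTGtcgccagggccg
HSPD1, heat shock elements, chr2:197500061-197500090, minus strand: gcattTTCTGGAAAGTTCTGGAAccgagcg
HSPA9, E-box, chr5:138575403-138575432, minus strand: cgcccctcacccCACGTGgttggaggtTTC
HSPA9, heat shock element, chr5:138575387-138575416, minus strand: TGgttggaggtTTCCAGAAgcgctgccgcc
LONP1, first E-box, chr19:5720341-5720370, minus strand: ctcacagccttcCACGTGaccggaaaaggc
LONP1, second E-box, chr19:5720178-5720207, minus strand: cgcgccgggcgtCACGTGcgtttcgcggcg
The E-box in the first stretch lies 22 bases before the *HSPE1* start and, read on the other strand, 88 bases before one of the *HSPD1* starts. The *HSPD1* stretch lies before the other *HSPD1* start and holds 3 overlapping heat shock elements, at 245, 240 and 235 bases. It falls outside the *HSPE1* window. The last capitals of the *HSPA9* E-box stretch, and the first of the stretch after it, belong to the element at the neighbouring position. The E-box occurred in windows of 4 genes (*HSPD1*, *HSPE1*, *HSPA9* and *LONP1*, the last with both of its E-boxes in 1 window) and in 7.26% of all 35116 windows. TTCNNGAA occurred for *HSPD1* and *HSPA9* (7.74% of all windows) and GAANNTTC for *HSPD1* (6.77%). The cAMP response element occurred for *TRAP1* (1.85%), the CCAAT box for *DNAJA3* and *CLPX* (34.6%) and the C/EBP-ATF element for none (0.866%). A match describes these letters only. The 4 genes with an E-box had log2 fold changes of -0.39, -0.26, -0.18 and 0.54 in the order named, and none passed the test.

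Across the 6 libraries, the profile of *HSPD1* on the log2 CPM scale was closest to those of *LCTL* (Pearson r = 0.99), *GLA* (0.99) and *MRPL35* (0.99) among 10088 genes with a mean of at least 5 CPM. *HSPE1* ranked 1123 on this list (r = 0.78) and *YME1L1* ranked 1708 (r = 0.70). *HSPA9* (0.064), *TRAP1* (-0.0023) and *CLPX* (-0.039) did not follow *HSPD1*. These values describe 6 points that share EtOH replicate 2 as their highest *HSPD1* level.

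*HSPA9* (chr5:138553756-138575675, minus strand), the mitochondrial Hsp70, had 447, 405 and 433 CPM in EtOH and 402, 303 and 426 CPM in Tet libraries. Tet replicate 2 was the lowest, and the other libraries overlapped. The means were 428 ± 21.5 CPM and 377 ± 65.3 CPM (SD, n = 3 each), with a log2 fold change of -0.18 and a 95% interval of -0.56 to 0.20 (edgeR adjusted p = 0.778), and it was -0.05 without Tet replicate 2. Its J-domain partner *DNAJA3* (chr16:4425805-4456775, plus strand) had 1.65, 0.397 and 0.793 CPM in EtOH and 0.674, 0.818 and 1.79 CPM in Tet libraries, on 11 to 71 counts per library. EtOH replicate 1 and Tet replicate 3 were the high ones, and the log2 fold change of 0.20 had a 95% interval of -1.14 to 1.55 (edgeR adjusted p = 0.951). It was -0.35 without Tet replicate 3.

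*TRAP1* (chr16:3651639-3717553, minus strand) had 7.84, 4.29 and 6.08 CPM in EtOH and 3.33, 2.65 and 7.45 CPM in Tet libraries. Tet replicates 1 and 2 lay below every EtOH library and Tet replicate 3 lay above all but one of them. The means were 6.07 ± 1.77 CPM and 4.48 ± 2.60 CPM (SD, n = 3 each), and *TRAP1* differed by -0.44 ± 0.42 (SE) on the log2 scale, with an adjusted p of 0.791 by edgeR. This value was -1.02 without Tet replicate 3 (edgeR adjusted p = 0.439), -0.17 without Tet replicate 2 and -0.23 without EtOH replicate 1. Of its exon bases, 29.5% lie inside *DNASE1* on the opposite strand, and *DNASE1* was given 1086 counts in Tet replicate 3 and 265 to 510 in the other libraries, so reads of the shared stretch cannot be told apart.

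Among the proteases, the GC-poor genes *CLPX* and *YME1L1* varied least. *CLPX* (chr15:65148219-65185342, minus strand) had 72.5, 57.3 and 75.7 CPM in EtOH and 59.2, 53.1 and 61.7 CPM in Tet libraries. EtOH replicate 2 lay within the Tet range, and the log2 fold change of -0.24 had a 95% interval of -0.61 to 0.13 (edgeR adjusted p = 0.673). *YME1L1* (chr10:27110111-27155266, minus strand), which trims inner-membrane and intermembrane-space proteins and processes the fusion protein OPA1, had 256, 308 and 277 CPM in EtOH and 269, 253 and 264 CPM in Tet libraries. It had the smallest log2 fold change by size of the 10 genes, -0.10, with a 95% interval of -0.42 to 0.22 (edgeR adjusted p = 0.877).

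*CLPP* (chr19:6361531-6370242, plus strand) was represented by 20, 14 and 9 counts in EtOH and by 11, 8 and 73 counts in Tet libraries. Tet replicate 3 alone reached 1.84 CPM, the other libraries lying between 0.226 and 0.558 CPM. The log2 fold change of 0.86, with a 95% interval of -0.87 to 2.59 (edgeR adjusted p = 0.772), became -0.57 without that library. *LONP1* (chr19:5691834-5720572, minus strand), the Lon protease that degrades oxidised matrix proteins, showed the same arrangement, with 2.90, 1.95 and 2.45 CPM in EtOH and 2.62, 1.75 and 6.19 CPM in Tet libraries. Only Tet replicate 3 exceeded the EtOH range. On the log2 scale it differed by 0.54 ± 0.46 (SE), with an adjusted p of 0.765 by edgeR, and by -0.16 without Tet replicate 3. *HTRA2* (chr2:74529725-74533332, plus strand), an intermembrane-space serine protease, did not share this pattern, at 2.34, 0.613 and 2.35 CPM in EtOH and 1.28, 0.959 and 1.21 CPM in Tet libraries. EtOH replicate 2 lay below every Tet library and the other EtOH libraries above them, and the difference of -0.63 on the log2 scale (SE 0.50), with an edgeR adjusted p of 0.731, was -1.03 without EtOH replicate 2 (edgeR adjusted p = 0.120). Opposite-strand exons of *LOXL3* cover 23.3% of the *HTRA2* exon bases.

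**Figure D3:**
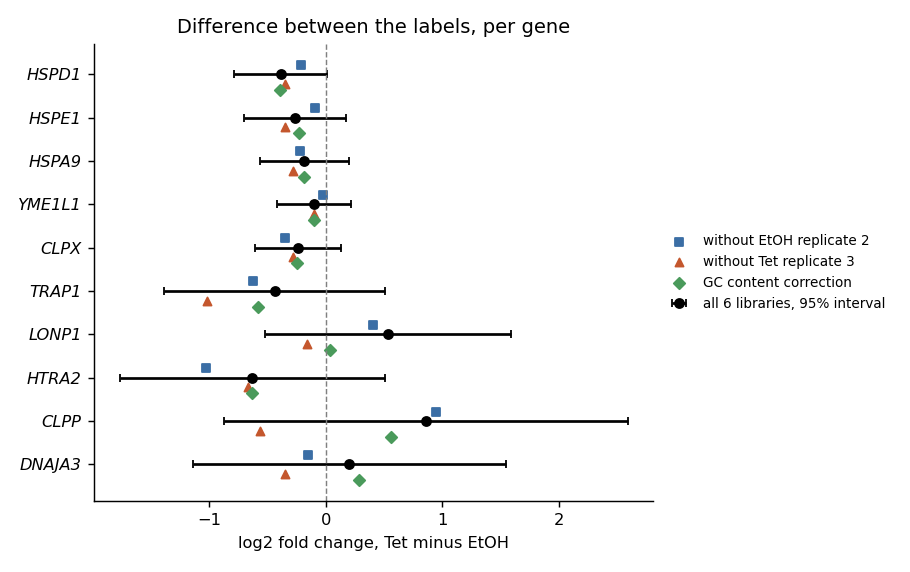
Log2 fold change, Tet minus EtOH, of the 10 genes with 95% intervals from edgeR (black), without EtOH replicate 2 (squares), without Tet replicate 3 (triangles) and after the GC content correction (diamonds). The GC-poor genes have narrow intervals and estimates that stay below 0, whereas the values of *DNAJA3*, *LONP1* and *CLPP* cross 0 when Tet replicate 3 is left out.

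The spread of the fold changes followed the same division. The 5 abundant genes had SEs of 0.14 to 0.19 and 5 of 5 log2 fold changes below 0, and the 5 scarce genes had SEs of 0.42 to 0.76 and 2 of 5 below 0. Without Tet replicate 3, all 10 log2 fold changes were below 0, still with none called. The median over all genes tested was then -0.045. Leaving out any other library left 7 or 8 of the 10 below 0. Tet replicate 3 also stood apart over all tested genes of more than 60% GC. Its median deviation from the mean of the 6 libraries was 0.70 there, against -0.25 to 0.03 in the other libraries on the log2 scale. The median log2 fold change, Tet minus EtOH, in this GC class was 0.47, while it was 0.0045 for genes under 40% GC. The summed level of the 5 scarce genes was 15.3, 7.75 and 12.0 CPM in EtOH replicates 1 to 3 and 8.29, 6.40 and 18.5 CPM in Tet replicates 1 to 3. The 2 libraries highest in this sum, Tet replicate 3 and EtOH replicate 1, were also the highest in the share of coding counts from GC-rich genes (5.59% and 5.38%), and EtOH replicate 2 and Tet replicate 2, lowest in the sum, were lowest in that share (3.98% and 4.52%). The summed level of the 5 abundant genes was 1625, 1892 and 1577 CPM in EtOH and 1400.3, 1383 and 1441 CPM in Tet libraries, so that the groups did not overlap. Among single genes tested, 8.28% had groups that did not overlap with Tet lower. *HSPD1*, itself such a gene, is the largest term of the sum, and the sum was not tested. After a correction of the counts for GC content, the log2 fold change of *LONP1* went from 0.54 to 0.04 and that of *CLPP* from 0.86 to 0.56, whereas *TRAP1* went from -0.44 to -0.58 and *DNAJA3* from 0.20 to 0.28. *HSPD1* then had an edgeR adjusted p of 0.335, and none of the 10 genes was called. The part of base composition in these differences was not tested beyond this correction.

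**Figure D4:**
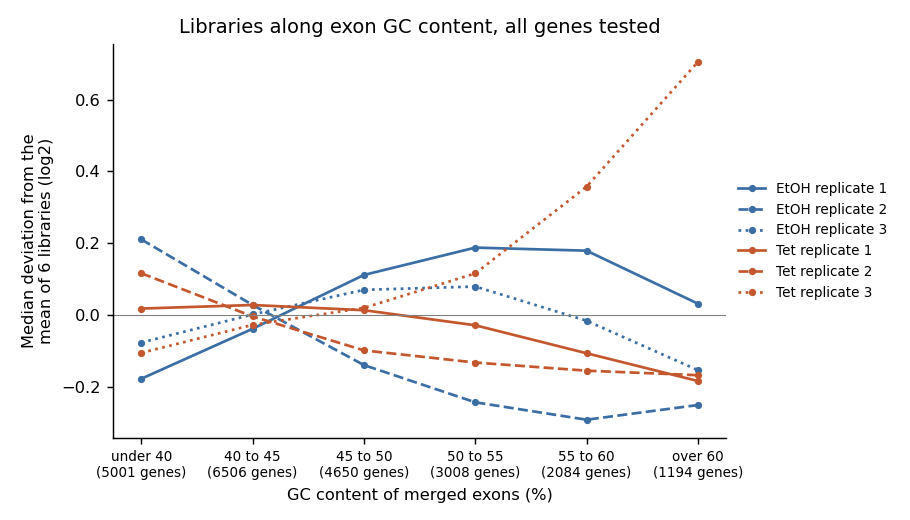
Median deviation of each library from the mean of the 6 libraries (log2 scale) by exon GC class of the tested genes, with EtOH and Tet replicates as lines. Tet replicate 3 rises to 0.70 in the class over 60% GC, and EtOH replicate 2 is lowest in every class above 45% GC.

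Neighbouring parts of the pathway gave the same count of calls. Of 74 genes in 6 lists, 66 were tested and none passed an edgeR adjusted p under 0.05. The groups did not overlap for 6 of the 66, all lower in Tet, beside 8.28% of all tested genes in that direction. An unadjusted p under 0.05 was found for 2 of the 66, *MIPEP* and *CCT4*, beside 10.8% of all tested genes, and DESeq2 and limma-voom called none. The import motor and co-chaperone list had 7 of 9 genes tested, 3 above and 4 below 0, with a median log2 fold change of -0.0067. Its groups did not overlap for 2 of the 7 genes, both lower in Tet, beside 8.28% of all tested genes in that direction. *DNAJC15* (0.71) and *DNAJC19* (-0.24), both J-domain genes of the import motor, had its highest and lowest values. All 15 other mitochondrial proteases and scaffolds were tested, 7 above and 8 below 0, with a median of -0.01. *MIPEP*, which removes an octapeptide from imported proteins, had 4.80, 6.93 and 5.12 CPM in EtOH and 3.62, 3.61 and 2.67 CPM in Tet libraries. Its groups did not overlap, and they differed by -0.77 ± 0.27 (SE) on the log2 scale, an adjusted p of 0.336 by edgeR. The presequence protease gene *PITRM1* had -0.31. The import channel and carrier list had 11 of 12 genes tested, 6 above and 5 below 0, with a median of 0.02. Its members *TIMM13* (0.74) and *TOMM40* (0.55) had a mean under 3 CPM in both groups. Among the alternatives that kept all 6 libraries, their lowest values were 0.21 and 0.15.

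The stress signalling list had 9 of 11 genes tested, 6 above and 3 below 0, and a median log2 fold change of 0.39. *ATF5*, the factor linked to the mitochondrial unfolded protein response, had 8.87, 1.98 and 8.76 CPM in EtOH and 20.03, 2.20 and 38.1 CPM in Tet libraries. Replicate 2 was the lowest of each group, Tet replicates 1 and 3 exceeded every EtOH library, and the difference of 1.62 on the log2 scale came with an SE of 0.87 and an adjusted p of 0.568 by edgeR. It ranged from 0.76 without Tet replicate 3 to 2.15 without Tet replicate 2, and its lowest adjusted p over the alternatives was 0.0548. *ATF4*, the integrated stress response factor, had 41.6, 9.49 and 24.7 CPM in EtOH and 23.7, 11.2 and 27.2 CPM in Tet libraries, again lowest in replicate 2 of each group, and a difference of -0.29 (edgeR adjusted p = 0.903). *HSF1*, the heat shock factor, had 1.21 (edgeR adjusted p = 0.672) on less than 1.5 CPM in every library. Tet replicate 3 had 1.46 CPM and the other libraries 0.108 to 0.562 CPM. Among the alternatives that kept all 6 libraries, the lowest *HSF1* value was 0.56. The part of base composition in the values of this list was not tested.

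Cytosolic chaperones had 16 of 18 genes tested, 4 above and 12 below 0, with a median of -0.15 and 3 of the 16 with groups that did not overlap, all lower in Tet, beside the same 8.28%. *CCT4*, a subunit of the TRiC ring, the cytosolic relative of the Hsp60 chamber, had 277, 211 and 269.8 CPM in EtOH and 207, 185 and 194 CPM in Tet libraries, a difference of -0.37 on the log2 scale (SE 0.16) with an adjusted p of 0.442 by edgeR. *CCT3* had -0.38. *HSPA1A* and *HSPA1B*, near-identical copies, were listed at 0 in these counts of unique alignments. Endoplasmic reticulum chaperones had 8 of 9 genes tested, 5 above and 3 below 0, with a median of 0.08. *HSPA5*, the Hsp70 of that compartment, had 247, 694 and 251 CPM in EtOH and 275, 290.1 and 283 CPM in Tet libraries. EtOH replicate 2 alone was high, and the log2 fold change of -0.49 became 0.19 without it. *CALR*, a lectin chaperone, had 0.33, which became -0.31 without Tet replicate 3.

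**Figure D5:**
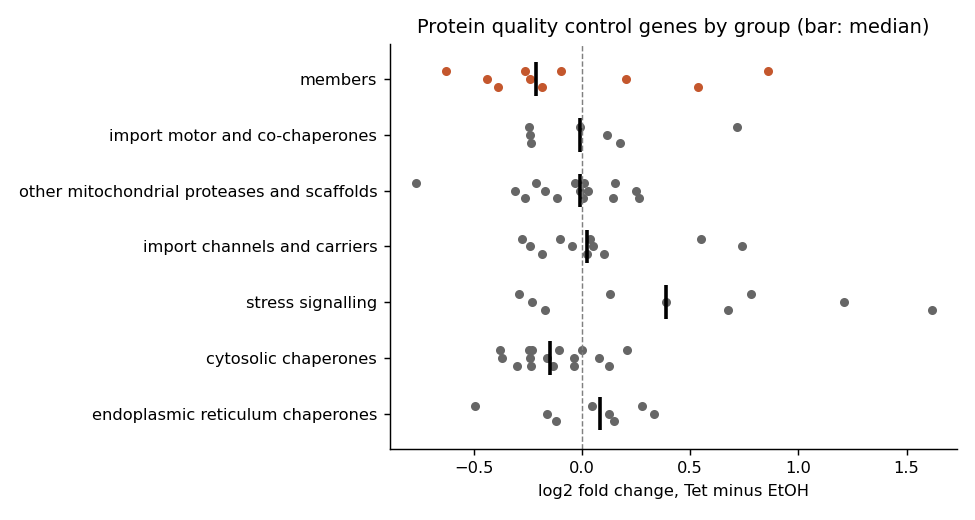
Log2 fold change, Tet minus EtOH, of each tested gene in the 10-gene set (row members) and the 6 pathway lists, with the median of each as a bar. The medians lie between -0.21 for the 10 mitochondrial chaperone and protease genes and 0.39 for stress signalling, and no gene passed the test.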

How the data were processed

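Ribosomal-RNA-depleted total RNA was sequenced as stranded paired-end libraries, and the deposited values are estimated counts per gene, 1 table per library. Per the file headers, the authors used featureCounts 1.6.4 on uniquely aligned reads, ignored the strand, and divided reads on overlapping genes among them. The labels name STAR 2.7.1a, featureCounts 1.5.1 and GRCh38. Counting without strand mixes a gene with its antisense neighbour, and unique alignment removes reads of near-identical copies. Between 12.3% and 14.7% of values in a library were not whole, and values were rounded although the planned test had assumed whole counts. The 92 spike-in rows were at 0 and were left out.

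Libraries were grouped by title. Genes were kept with filterByExpr, scaled by TMM and compared, Tet minus EtOH, with the quasi-likelihood test of edgeR 4.0.16 in R 4.3.3, with Benjamini-Hochberg values over all genes tested and no replicate block. DESeq2 1.42.0, limma-voom (limma 3.58.1), other scalings and filters, the block and leaving out each library were alternatives. TPM used exon length from the files. Ratios of TPM were compared by exact permutation. The GC content correction subtracted a median per library in 20 bins of exon GC content. GC content and overlaps came from the hg38 genome and GENCODE 44 annotation, in which 53025 of 53026 identifiers of the same version had the same coordinates. The edgeR step was tested on simulated data. Counting limits cover counting error only.

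The 10 genes and all lists were chosen with earlier results of these data known. The genes named are the 10, *MYCN*, the 2 of each pathway list with the largest log2 fold change by size, genes whose exons overlap the 10, cell type markers and the 3 genes closest in profile to *HSPD1*. *ATF4*, *HSPA1A* and *HSPA1B* were named after their values were seen.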

Additional observations from a re-analysis of the deposited data

How the results depend on the processing

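None of the 10 genes was called in any of 17 alternatives, nor was any of the genes in the 6 pathway lists. Over all genes, 53 were called, and this number was 302 without the filter, 485 by DESeq2, 125 with the GC content correction and 0 to 692 when 1 library was left out (692 without EtOH replicate 2). The correction and the added pseudogene counts of *HSPE1* were chosen after seeing the data. The replicate block gave 675 calls, and 1066 with the GC content correction, with edgeR adjusted p-values for *HSPD1* of 0.148 and 0.0646. Deviations of same-numbered libraries correlated at 0.0603, 0.510 and 0.219, and 3 of 6 libraries correlated best with their own number. The highest value was that of replicate 2, whose libraries matched each other best in both directions. The labels give the shared number only, and whether same-numbered libraries share more was not tested. The block left the differences of the log2 ratios at -0.11 (*HSPD1* to *HSPE1*), -0.51 (*HSPA9* to *DNAJA3*) and -0.55 (*CLPX* to *CLPP*).

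Leaving out 1 library gave log2 fold changes from -0.35 to 0.86 for *DNAJA3* (-0.15 without EtOH replicate 2), -0.16 to 0.86 for *LONP1*, -0.57 to 1.31 for *CLPP*, -0.31 to 0.75 for *CALR*, -0.092 to 0.92 for *TOMM40*, -0.77 to 0.19 for *HSPA5* and -0.22 to 0.21 for *MYCN* (0.07 without Tet replicate 3). The sign held from -1.02 to -0.17 for *TRAP1*, -1.03 to -0.39 for *HTRA2*, -0.52 to -0.21 for *HSPD1*, -0.39 to -0.09 for *HSPE1*, -0.28 to -0.05 for *HSPA9*, -0.35 to -0.18 for *CLPX*, -0.18 to -0.02 for *YME1L1* and 0.76 to 2.15 for *ATF5*. The log2 ratio differences ranged from -0.22 to 0.0061 for *HSPD1* to *HSPE1*, from -0.99 to -0.04 for *HSPA9* to *DNAJA3* and from -1.12 to 0.28 for *CLPX* to *CLPP*. Signs turned without EtOH replicate 2 or Tet replicate 3, and the cause was not tested. The fold changes of the 10 genes were recomputed 172 times, of which 4 turned in sign and 168 did not. The 5 GC-rich genes, with 8 to 296 counts per library, had intervals that reach past 1 on the log2 scale in at least 1 direction. Whether depth or the spread between libraries set their width was not tested.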
